A study of Mus musculus with 2 samples.

Results

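The genes described here are 6 members of the family of regulators of G protein signalling (RGS), namely Rgs2, Rgs3, Rgs4, Rgs5, Rgs10 and Rgs16. They were chosen by symbol from the 28692 features of each library, which hold 21 RGS genes with a number in their name. They were chosen with their levels in these cells already known, so every level and difference below is a description and carries no test.

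RGS proteins bind the active, GTP-loaded alpha subunit of a heterotrimeric G protein and speed the hydrolysis of its GTP, which ends the signal from the receptor. They thereby set how long and how strongly a cell responds to angiotensin, endothelin, noradrenaline and other ligands of G protein-coupled receptors that act on contractile cells. Rgs5 is widely used as a marker of pericytes, the contractile cells that wrap capillaries.

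Single-cell RNA-seq had been performed on mesenchymal stromal cells (MSC) from intestine that had grown as a graft. Mid-gestation embryos of EYFP males and C57BL/6Nrj females gave either small intestine (SI) or large intestine (LI), which was left for 4 weeks beneath the capsule of the kidney in adult WT mice. The sort kept live YFP+ Itgb1+ cells that were negative for CD45, Ter119, BP3, CD31, EpCAM and L1CAM, and thereby cells of graft and not of host origin. The EYFP mice (C57BL/6 strain) came from a cross of R26R.EYFP reporter mice with a Cre line, so that YFP marked the graft and not a cell type. There was 1 library per graft type, each from pooled tissue with cells of both sexes. A 3′ or a 5′ kit had been used, and which library was made with which is not given in the sources used here, so the kit and the graft type cannot be told apart.

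Of the 6 members, 4 lie on mouse chromosome 1, as do 11 of the 21 RGS genes. Rgs5 (ENSMUSG00000026678, chr1:169655501-169695813, plus strand) and Rgs4 (ENSMUSG00000038530, chr1:169741477-169747642, minus strand) point towards each other, with 45.7 kb and no annotated gene between them. Rgs16 (ENSMUSG00000026475) is at chr1:153740349-153745468 on the plus strand and Rgs2 (ENSMUSG00000026360) at chr1:143999338-144004161 on the minus strand. Rgs3 (ENSMUSG00000059810) is at chr4:62559847-62704001 on the plus strand and Rgs10 (ENSMUSG00000030844) at chr7:128373621-128418758 on the minus strand, all in GRCm38 (mm10). An antisense gene overlaps Rgs16 (Gm28513) and another overlaps Rgs3 (Gm11209).

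The upstream sequences are shown for the 3 members that were higher in pericyte-like than in fibroblast-like cells of both grafts (Rgs5, Rgs4 and Rgs16), and for Rgs2 and Rgs10, which were highest elsewhere. Each runs 5′ to 3′ over the 250 bases before the start given by RefSeq (GRCm38.p6). Capitals mark the CCAAT box (CCAAT or its reverse, ATTGG) and the TATA box (TATAA).
Rgs5, chr1:169655251-169655500, plus strand: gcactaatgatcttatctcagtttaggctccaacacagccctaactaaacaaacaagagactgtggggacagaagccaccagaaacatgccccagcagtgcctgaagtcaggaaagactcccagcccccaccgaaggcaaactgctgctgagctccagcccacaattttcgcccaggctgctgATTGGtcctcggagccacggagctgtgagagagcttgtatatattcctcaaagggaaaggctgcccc
Rgs4, chr1:169747643-169747892, minus strand: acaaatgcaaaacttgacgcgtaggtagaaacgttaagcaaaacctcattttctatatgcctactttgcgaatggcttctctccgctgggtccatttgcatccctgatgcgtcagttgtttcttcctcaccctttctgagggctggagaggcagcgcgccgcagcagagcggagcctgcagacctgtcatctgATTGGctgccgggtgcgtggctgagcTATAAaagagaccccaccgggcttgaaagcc
Rgs16, chr1:153740103-153740352, plus strand: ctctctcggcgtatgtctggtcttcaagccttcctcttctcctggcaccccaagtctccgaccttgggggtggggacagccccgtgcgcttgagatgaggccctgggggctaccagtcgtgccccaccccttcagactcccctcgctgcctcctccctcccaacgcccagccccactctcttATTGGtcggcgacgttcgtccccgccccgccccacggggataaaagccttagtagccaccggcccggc
Rgs2, chr1:144004150-144004399, minus strand: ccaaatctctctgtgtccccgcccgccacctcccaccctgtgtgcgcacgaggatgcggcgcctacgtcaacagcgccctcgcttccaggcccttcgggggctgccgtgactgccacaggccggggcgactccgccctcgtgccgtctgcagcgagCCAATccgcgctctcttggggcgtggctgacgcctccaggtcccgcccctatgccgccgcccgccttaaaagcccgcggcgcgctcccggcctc
Rgs10, chr7:128418173-128418422, minus strand: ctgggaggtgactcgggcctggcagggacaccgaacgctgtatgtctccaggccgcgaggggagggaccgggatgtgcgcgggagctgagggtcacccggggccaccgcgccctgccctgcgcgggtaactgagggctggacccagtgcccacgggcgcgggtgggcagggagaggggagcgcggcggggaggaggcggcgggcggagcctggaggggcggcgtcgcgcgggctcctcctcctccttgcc
A CCAAT box was found in 4 of the 6 members, and 33.8% of all 32851 upstream windows of this length held one. It lay 57 bases before the start in Rgs4, 67 in Rgs5, 68 in Rgs16 and 94 in Rgs2. A TATA box lay 31 bases before the start of Rgs4 and was also found upstream of Rgs3, against 22.8% of all windows. The core of the cAMP response element (TGACG) was found in Rgs2 and Rgs4, with 2 in each, against 17.8% of windows, and an RBPJ site (TGGGAA) in Rgs3 against 21.6%. No member had an AP-1 site (TGANTCA, 6.75% of windows), an E-box (CACGTG, 6.02%), a HIF core (ACGTG, 16.6%) or a CArG box (1.47%). Both strands were searched, and no matches in the members overlapped. GC content was 76.4% upstream of Rgs10, 72.4% of Rgs2, 66.4% of Rgs16 and 53.6% of both Rgs5 and Rgs4, against a median of 52.4% over all windows.

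The LI library held 63348069 UMIs in 11568 barcodes and the SI library 54918006 UMIs in 9631 barcodes, and the libraries shared 26 barcode sequences. After cells with under 500 genes or over 10% mitochondrial UMIs had been removed, 9873 LI and 7910 SI cells were left. Cells were placed in classes by the number of marker genes with a UMI, with no RGS gene among the markers, and the classes are named for their markers as pericyte-like, smooth muscle cell (SMC)-like, fibroblast (FB)-like and interstitial cell of Cajal (ICC)-like. There were 423 pericyte-like cells in LI and 767 in SI, 205 and 295 SMC-like, 6876 and 5306 FB-like, and 285 and 48 ICC-like cells. A further 57 LI and 220 SI cells passed both the pericyte and the SMC gate, and Scrublet gave 8.77% and 8.18% of them a doublet score among the highest, beside 2.6% and 2.61% of pericyte-like cells. FB-like cells were divided by further markers into PDGFRAhi (537 in LI and 399 in SI), CD81 (1500 and 1789), Fgfr2 (1566 and 941) and other FB-like cells (3273 and 2177). All 10 pericyte markers were detected in pericyte-like cells. Levels are pooled CPM, the UMIs of a gene over all UMIs of a class, scaled to counts per 1e6 UMIs. Values in parentheses after a level, share or ratio are its 95% interval, which covers counting error only and not the spread between grafts.

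Rgs5, Rgs4 and Rgs16 were higher in pericyte-like than in FB-like cells, and Rgs10 was lower. These first 3 of the 6 members were at least 2-fold higher in LI, where 10.8% of genes at 10 CPM or more were, and the same 3 in SI, where 10.2% were. Since the members were chosen with these contrasts known, nothing is read from the comparison with those shares. The median log2 ratio over all such genes was 0.14 in both libraries.

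Rgs5, whose product acts on alpha subunits of the Gi and Gq families, was at 4986 (4887 to 5087) CPM in LI pericyte-like cells and 4561 (4495 to 4627) in SI. A UMI was seen in 99.8% of the LI and 99.3% of the SI pericyte-like cells, and in 98.8% of 412 and 97.7% of 740 cells after thinning to 2000 UMIs, with the shallower cells left out. Nearly every pericyte-like cell of both grafts thus carried Rgs5 RNA. In cells of both gates its level was 2062 (1927 to 2205) CPM in LI and 2574 (2504 to 2645) in SI, and in SMC-like cells 188 (163 to 217) and 348 (322 to 375). The pericyte-like level was 26.5 times the SMC-like level in LI and 13.1 times in SI, and cells of both gates lay between these classes. ICC-like cells had 742 (694 to 792) CPM in LI and 244 (183 to 319) in SI. In immune-like cells, which should lack the gene, 0 of 38 LI cells had a UMI at a median depth of 2701 UMIs, which by the limit of 3 counts allows up to 7.89% of cells with a UMI, and 2 of 16 SI cells had one at a median depth of 2674, with a level of 69.4 (22.5 to 162) CPM. The median depth of pericyte-like cells was 4233 UMIs in LI and 4412 in SI.

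Rgs4, likewise a brake on Gi and Gq signals, was at 416 (388 to 446) CPM in LI pericyte-like cells and 419 (399 to 439) in SI. Its level was 6.31 (5.61 to 7.07) CPM in LI and 9.45 (8.47 to 10.5) in SI FB-like cells, and 42.9 (31.0 to 57.7) and 55.1 (45.1 to 66.7) in SMC-like cells. The log2 ratio of pericyte-like over FB-like cells was 5.84 (5.66 to 6.01) in LI and 5.33 (5.17 to 5.49) in SI, beside 6.36 (6.30 to 6.42) and 2.80 (2.78 to 2.83) for Rgs5. Rgs4 therefore had the highest such ratio of the 6 members in SI, and Rgs5 in LI. Cells of both gates had 159 (123 to 202) CPM of Rgs4 in LI and 185 (167 to 205) in SI. After thinning, a UMI was seen in 48.8% of LI and 53.2% of SI pericyte-like cells, against 0.956% and 1.89% of FB-like cells. In pericyte-like cells the interval of the pooled log2 ratio of LI over SI included equality, at -0.01 (-0.13 to 0.11). By sex, the level was 370 (341 to 401) CPM in female LI and 428 (396 to 461) in female SI cells. In male cells it was 551 (440 to 680) CPM in 30 LI and 373 (341 to 406) in 226 SI cells. The grafts thus differed in opposite directions by sex, and the female intervals overlapped.

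Rgs16, an inducible regulator of Gi and Gq signals, was at 266 (243 to 290) CPM in LI pericyte-like cells and 410 (390 to 430) in SI. Cells of both gates had 276 (228 to 332) CPM in LI, near the pericyte-like level, and 295 (271 to 319) in SI, below it. SMC-like cells had 32.9 (22.6 to 46.2) CPM and 36.4 (28.4 to 46.0), below the 76.9 (74.5 to 79.5) and 57.9 (55.4 to 60.4) of FB-like cells. By sex, SI SMC-like cells had 62.4 (47.8 to 80.2) CPM in 155 female and 12.6 (5.45 to 24.9) in 84 male cells. SI FB-like cells had 56.3 (52.9 to 59.8) in female and 58.6 (54.2 to 63.3) in male cells. The SMC-like level was thus not below the FB-like level among female SI cells. The log2 ratio of pericyte-like over FB-like cells was 1.78 (1.64 to 1.91) in LI and 2.80 (2.71 to 2.90) in SI. FB-like cells nonetheless carried 73.3% of all Rgs16 UMIs in LI and 38.8% in SI, beside 77.2% and 69.7% of the UMIs of all genes. In LI pericyte-like cells, the level was 284 (259 to 312) CPM in 360 female and 122 (73.2 to 190) in 30 male cells, and in SI 480 (447 to 515) in 334 female and 316 (287 to 347) in 226 male cells. Male FB-like cells of LI had 88.8 (81.8 to 96.3) CPM, so among male LI cells the log2 ratio was 0.45 and the difference was under 2-fold.

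**Figure D1:**
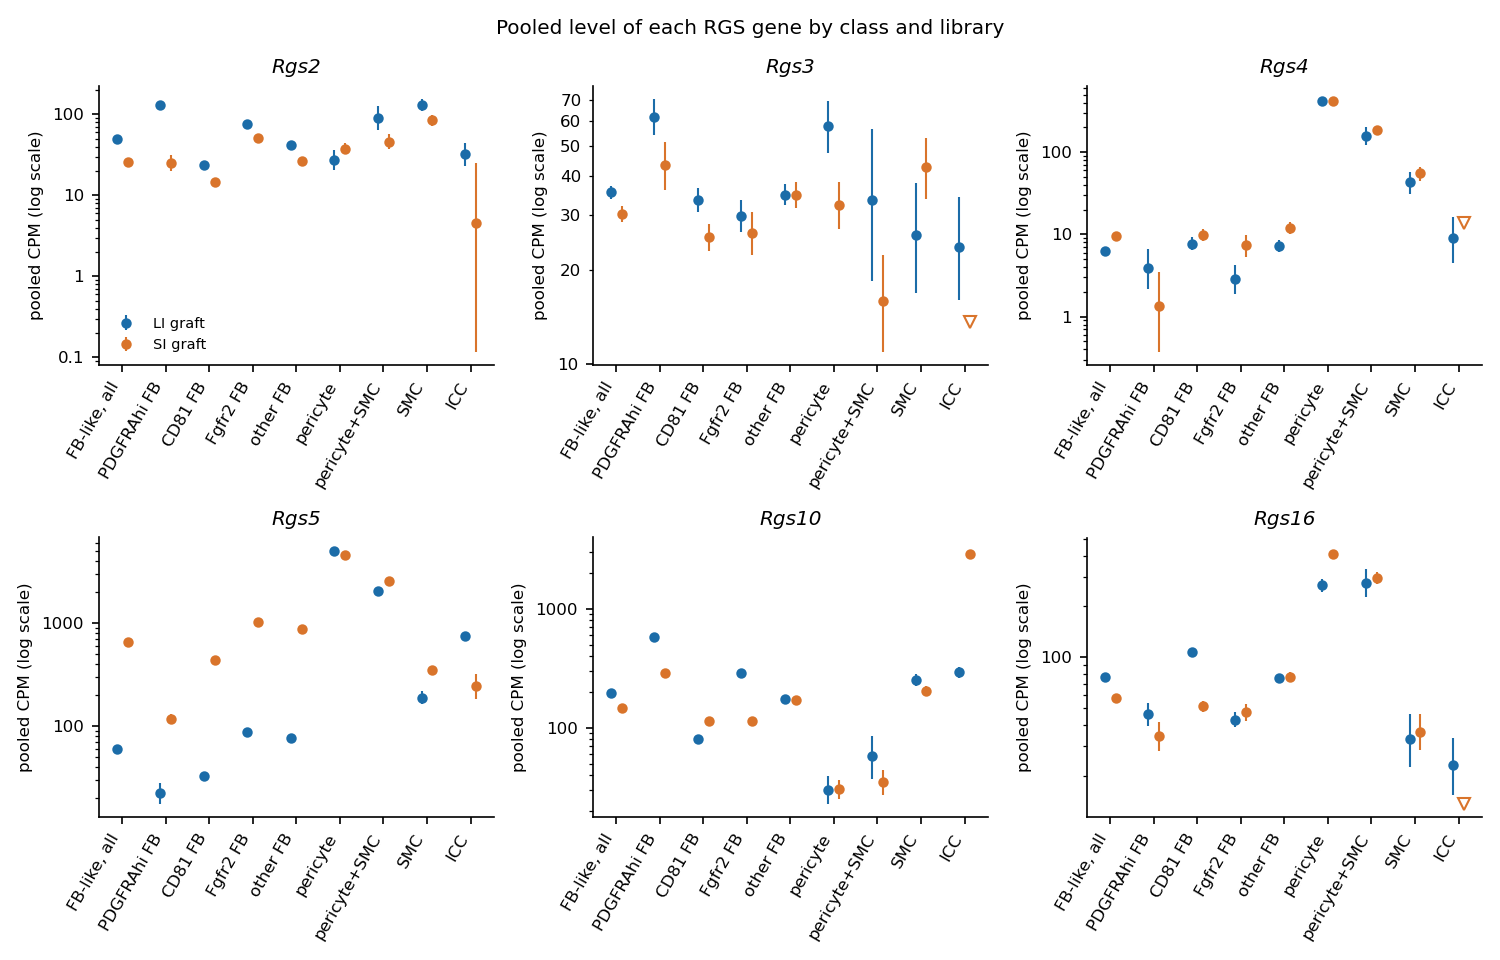
Pooled level (CPM, log scale) of each RGS gene by class in the LI (blue) and SI (orange) graft, with 95% counting intervals, and open triangles at the limit of 3 counts where no UMI was seen. Rgs4 and Rgs5 are at their highest in pericyte-like cells, Rgs10 is low there, and Rgs5 in FB-like cells is at 59.9 CPM in LI and 652 in SI.

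Rgs5 was also the member that differed most between the FB-like cells of the grafts. Its level was 59.9 (57.7 to 62.1) CPM in LI FB-like cells and 652 (644 to 660) in SI, a log2 ratio of -3.42 (-3.48 to -3.37) for LI over SI. It was the only 1 of the 6 members with a 2-fold difference between the libraries in FB-like cells as a whole, where 3.61% of genes had one, and it ranked 5 of 8613 genes by SI over LI. In pericyte-like cells 0 of the 6 members differed that much, where 3.96% of genes did, and the ratio for Rgs5 was 0.13 (0.09 to 0.16). In SMC-like cells 0 of the 6 members differed by 2-fold, where 8.92% of genes did, and Rgs5 was at -0.88 (-1.12 to -0.65). The pooled Rgs5 level was thus 1.09 times higher in LI in pericyte-like cells and 10.9 times higher in SI in FB-like cells. By sex, the pericyte-like level was 5162 (5052 to 5274) CPM in female LI and 5169 (5058 to 5282) in female SI cells. In male cells it was 3688 (3393 to 4002) in LI and 3740 (3639 to 3843) in SI. The pericyte-like LI level was thus not above the SI level among female or among male cells.

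Among SI FB-like cells, Rgs5 was at 116 (104 to 129) CPM in PDGFRAhi, 438 (428 to 449) in CD81, 869 (853 to 886) in other and 1018 (993 to 1044) in Fgfr2 cells. In LI the order was the same, with 22.0 (17.4 to 27.5) CPM in PDGFRAhi, 32.6 (29.8 to 35.5) in CD81, 75.6 (71.7 to 79.7) in other and 87.3 (81.4 to 93.4) in Fgfr2 cells. No neighbours in either order had overlapping counting intervals. The SI level was 5.25 times the LI level in PDGFRAhi, 13.5 times in CD81, 11.5 times in other and 11.7 times in Fgfr2 FB-like cells. PDGFRAhi cells, which in the intestine lie beside the epithelium, had the lowest Rgs5 level of the FB-like subsets in both grafts.

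The Rgs5 UMIs of SI FB-like cells were spread over many cells. At least 1 was found in 63.5% of them, and in 49.8% after thinning to 2000 UMIs, against 16.7% and 8.99% in LI. After thinning, 23.1% of SI FB-like cells had at least 3 UMIs and 10.4% at least 5, against 1.25% and 0.179% in LI. Thinning left out 184 SI and 179 LI cells. In SI epithelial-like cells, which should lack the gene, Rgs5 was at 13.7 (5.02 to 29.8) CPM, with 5 of 36 cells positive at a median depth of 11489 UMIs, beside 6115 in FB-like cells, and 0 of 33 positive after thinning. In SI immune-like cells Rgs5 was at 69.4 CPM, as given above. The level of SI FB-like cells as a whole was above the intervals of both classes, while that of their PDGFRAhi subset was within the immune-like interval. By sex, the FB-like level was 66.6 (63.9 to 69.3) CPM in female and 35.5 (31.1 to 40.4) in male LI cells, and 736 (723 to 748) and 520 (507 to 534) in SI.

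The number of Rgs5 UMIs per Rgs4 UMI also differed between classes. It was 12 (11.1 to 12.9) in LI pericyte-like cells and 10.9 (10.4 to 11.5) in SI, and 13.0 (10.1 to 17.0) and 13.9 (12.5 to 15.5) in cells of both gates. It was 69.0 (62.0 to 77.0) in SI FB-like cells and 138 (103 to 190) in their Fgfr2 subset. In LI FB-like cells it was 9.49 (8.42 to 10.7), with 4.20 (3.43 to 5.18) in CD81 and 30.3 (20.6 to 46.2) in Fgfr2 cells. SI FB-like cells thus carried more Rgs5 per Rgs4 than the pericyte-like cells of their own library, and in LI this was so for the Fgfr2 subset but not for FB-like cells as a whole. The summed level of the 10 pericyte markers in FB-like cells was 184 CPM in LI and 99.8 in SI. The part that free RNA or pericyte RNA had in the Rgs5 level of FB-like cells was not tested.

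**Figure D2:**
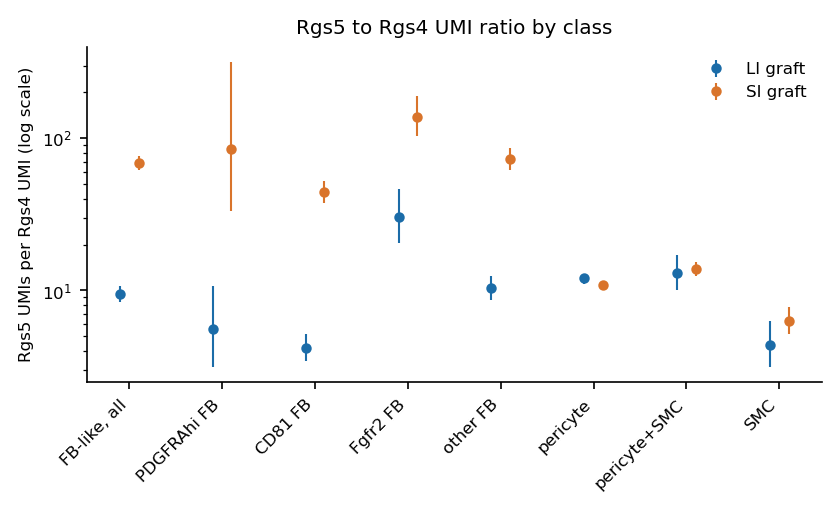
Rgs5 UMIs per Rgs4 UMI (log scale) in each class of the LI (blue) and SI (orange) graft, with 95% counting intervals. Pericyte-like cells lie at 12 in LI and 10.9 in SI, and SI FB-like cells lie at 69.0.

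**Figure D3:**
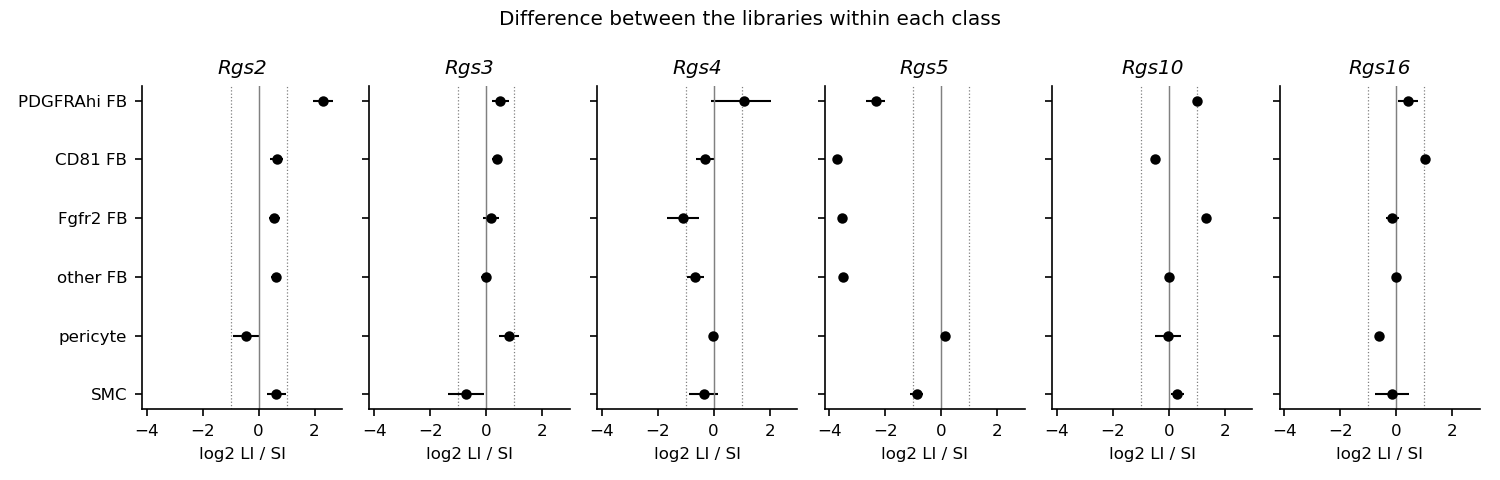
Log2 ratio of the LI over the SI level for each RGS gene in 6 classes, with 95% counting intervals and dotted lines at a 2-fold difference. Rgs5 lies between -3.71 and -2.34 in the FB-like subsets and at 0.13 in pericyte-like cells, and Rgs2 is at 2.30 in PDGFRAhi FB-like cells.

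Rgs10, a small member that acts on Gi family subunits and is best known from immune cells and microglia, had a pattern opposite to that of Rgs4 and Rgs5. It was at 30.1 (22.9 to 39.0) CPM in LI pericyte-like cells and 30.6 (25.4 to 36.5) in SI, and at 198 (194 to 202) and 148 (144 to 152) in FB-like cells. It was the only 1 of the 6 members at least 2-fold lower in pericyte-like than in FB-like cells, at a log2 ratio of -2.68 (-3.06 to -2.31) in LI and -2.24 (-2.50 to -1.99) in SI, where 11.0% and 10.8% of genes were as low. SMC-like cells had 253 (223 to 286) CPM in LI and 204 (184 to 225) in SI, so that these contractile classes differed in Rgs10 by 8.40 times in LI and 6.67 times in SI. The summed level of the 7 fibroblast markers was 4012 CPM in LI and 5721 in SI SMC-like cells, beside 1709 and 1547 in pericyte-like cells, and that of the 4 Fgfr2 fibroblast markers 2082 and 2377 beside 156 and 68.6. Their part in the Rgs10 difference was not tested. Cells of both gates had 57.7 (37.0 to 85.8) CPM in LI and 34.8 (27.1 to 43.9) in SI, nearer to pericyte-like than to SMC-like cells. The few immune-like cells had 465 (378 to 566) CPM in LI and 236 (137 to 378) in SI.

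Among FB-like cells, Rgs10 was highest in the PDGFRAhi subset, with 584 (559 to 610) CPM in LI and 288 (269 to 308) in SI. A UMI was seen in 83.4% and 78.4% of these cells, and in 58.9% and 40.7% after thinning. CD81 FB-like cells had 81.2 (76.7 to 85.8) CPM in LI and 115 (109 to 120) in SI, and Fgfr2 FB-like cells 291 (280 to 302) and 115 (107 to 124). The Fgfr2 level was above the CD81 level in LI, at a log2 ratio of 1.83 (1.73 to 1.93), while in SI the interval included equality, at 0.01 (-0.12 to 0.13). By sex, the FB-like level was 228 (223 to 233) CPM in 5623 female and 83.8 (77.0 to 91.1) in 652 male LI cells, and 165 (159 to 171) in 3105 female and 116 (109 to 122) in 1266 male SI cells. LI was therefore higher than SI among female FB-like cells and lower among male ones.

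SI ICC-like cells had the highest Rgs10 level of any class, at 2885 (2666 to 3118) CPM, with a UMI in all 48 cells. LI ICC-like cells were at 292 (262 to 324) CPM, with a UMI in 63.9% of 285 cells, so the SI level was 9.90 times the LI level. The comparison rests on 48 SI cells, and 26.0% of genes differed by at least 2-fold in it. Rgs3, Rgs4 and Rgs16 had no UMI in the SI ICC-like cells, which allows up to 13.6 CPM for each, and Rgs2 had 1 UMI. Pln, which smooth muscle also expresses, was among the 10 genes with the highest fold in the SI ICC-like cells. The summed pericyte markers were at 737 CPM in SI and 341 in LI ICC-like cells, the SMC markers at 570 and 296, the cycling markers at 244 and 106, and the 10 immediate early genes at 1981 and 6729. Their part in the Rgs10 difference was not tested. The Rgs10 level of SI ICC-like cells was 2793 CPM in 30 female and 3001 in 9 male cells.

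**Figure D4:**
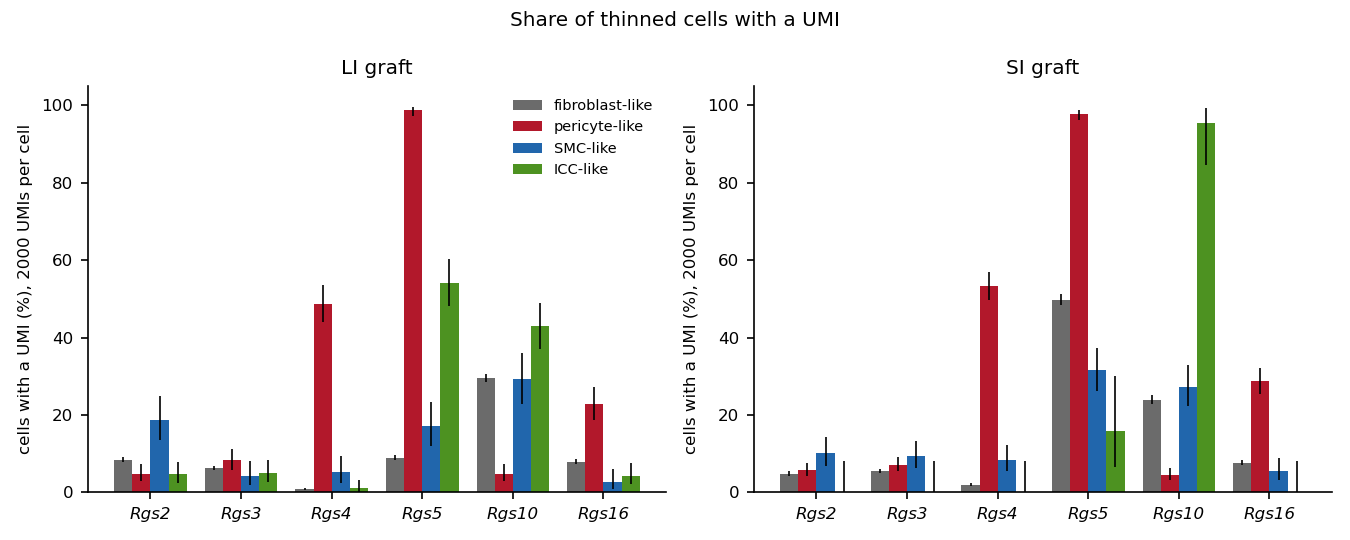
Share of cells (%) with at least 1 UMI of each RGS gene after thinning to 2000 UMIs per cell, for FB-like, pericyte-like, SMC-like and ICC-like cells of the LI and SI graft, with exact 95% intervals. Rgs5 is seen in 98.8% of LI and 97.7% of SI pericyte-like cells, and Rgs10 in 95.5% of SI but 42.9% of LI ICC-like cells.

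Rgs2, which prefers Gq subunits and thereby dampens contraction of vascular smooth muscle, was higher in SMC-like cells than in both other large classes. Its level was 132 (110 to 156) CPM in LI SMC-like cells and 84.3 (71.8 to 98.3) in SI. It was 27.5 (20.6 to 36.0) and 37.8 (32.0 to 44.3) in pericyte-like cells and 49.2 (47.2 to 51.2) and 25.6 (24.0 to 27.3) in FB-like cells. Against FB-like cells, 3 of the 6 members (Rgs2, Rgs4 and Rgs5) were at least 2-fold higher in SMC-like cells in LI, where 8.25% of genes were, and 2 (Rgs2 and Rgs4) in SI, where 8.06% were. The log2 ratio for Rgs2 was 1.40 (1.14 to 1.65) in LI and 1.68 (1.44 to 1.92) in SI. With classes taken from clusters in place of marker gates, the SI value was -0.04, over 107 SMC-like cells. For Rgs10 the SI log2 ratio was 0.46 and ran from 0.3 to 1.89 over the processing alternatives, and so passed 2-fold at the upper end.

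In FB-like cells, Rgs2 differed most between the libraries in the PDGFRAhi subset, at 129 (117 to 141) CPM in LI and 25.4 (19.9 to 31.8) in SI, or 5.07 times higher in LI. By sex, the level in this subset was 137 (124 to 151) CPM in 478 female and 60.5 (34.6 to 98.2) in 29 male LI cells, and 20.3 (13.9 to 28.6) in 223 female and 25.9 (16.2 to 39.2) in 99 male SI cells, so the difference between the grafts was smaller among male cells. The summed level of 10 immediate early genes in the subset was 29169 CPM in LI and 14983 in SI, and between LI cells above and at or below the median of that sum Rgs2 was at 191 against 102 CPM, a log2 ratio of 0.90 (0.41 to 1.39), beside 0.23 (-1.0 to 1.48) in SI. Their part in the difference was not tested. Fgfr2 FB-like cells had 76.7 (71.2 to 82.5) CPM and 51.3 (45.7 to 57.3), and CD81 FB-like cells 23.6 (21.2 to 26.1) and 14.6 (12.7 to 16.6). PDGFRAhi cells were thus above Fgfr2 cells in LI and below them in SI. A cell that passed both gates was counted as PDGFRAhi. The summed Fgfr2 fibroblast markers were at 9336 CPM in PDGFRAhi and 7325 in Fgfr2 cells of LI, and at 4285 and 6933 in SI. The part of this overlap in the Rgs2 order was not tested. Over all FB-like cells the Rgs2 level of LI exceeded that of SI by a log2 of 0.92 (0.81 to 1.02). By sex it was 55.2 (52.8 to 57.7) CPM in female and 24.9 (21.2 to 29.0) in male LI cells, and 26.1 (23.9 to 28.5) and 21.6 (19.0 to 24.5) in SI. Immune-like cells, which the sort was meant to remove, had 223 (165 to 296) CPM in 38 LI cells and 153 (76.2 to 273) in 16 SI cells.

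Rgs3, a member with long as well as short isoforms, differed by less than 2-fold in each comparison of pericyte-like or SMC-like with FB-like cells. It was at 35.5 (33.9 to 37.3) CPM in LI and 30.2 (28.5 to 32.1) in SI FB-like cells, 57.7 (47.4 to 69.4) and 32.3 (27.0 to 38.4) in pericyte-like cells, and 25.9 (16.9 to 38.0) and 42.7 (33.9 to 53.0) in SMC-like cells. The level of PDGFRAhi cells, at 62.0 (54.1 to 70.8) CPM in LI and 43.3 (36.1 to 51.4) in SI, was the highest of the FB-like subsets in both libraries. Pericyte-like cells were above FB-like cells in LI, at a log2 ratio of 0.68 (0.40 to 0.96), and in SI the interval included equality, at 0.09 (-0.17 to 0.35).

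Within pericyte-like cells, the members differed in how their UMIs were shared among cells. After thinning, the 10% of cells with the most UMIs of a gene held 22.7% of Rgs5 UMIs in LI and 26.3% in SI, 44.4% and 40.8% of Rgs4 UMIs, and 73.7% and 65.9% of Rgs16 UMIs. The mean per thinned cell was 10.2 and 9.70 UMIs for Rgs5, 0.886 and 1.03 for Rgs4, and 0.563 and 0.728 for Rgs16, and such a share depends on the mean. The variance over the mean was 3.88 in LI and 5.29 in SI for Rgs5, 2.04 and 1.82 for Rgs4, and 4.01 and 3.49 for Rgs16. Rgs5 with neither Rgs4 nor Rgs16 was seen in 36.2% of LI and 32.3% of SI pericyte-like cells, Rgs5 and Rgs4 without Rgs16 in 39.8% and 37.6%, and Rgs5 and Rgs16 without Rgs4 in 14.1% and 13.2%. All 3 were seen in 8.74% (6.19 to 11.9) of LI and 14.6% (12.1 to 17.3) of SI pericyte-like cells. Rgs16 was detected in 17.9% (12.9 to 23.9) of LI cells with an Rgs4 UMI and 27.5% (21.6 to 34.0) of those without, and in SI in 27.9% (23.5 to 32.6) and 29.8% (25 to 34.9). In both libraries these intervals overlapped, and at 2000 UMIs a cell without a UMI may still express the gene.

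Pericyte-like cells with a UMI of the contractile gene Myh11 (121 of 412 thinned cells in LI and 322 of 740 in SI) had less Rgs4 than those without. The level was 322 against 493 CPM in LI, a log2 ratio of -0.61 (-0.99 to -0.25), and 418 against 586 CPM in SI, a ratio of -0.49 (-0.71 to -0.27). Rgs16 was at 269 against 438 CPM in SI, a ratio of -0.70 (-0.97 to -0.44), while in LI the interval included equality, at 0.03 (-0.40 to 0.44). For Rgs5 the ratio was 0.06 (-0.04 to 0.15) in LI and -0.25 (-0.31 to -0.18) in SI. Rgs4 was thus lower both in Myh11-positive pericyte-like cells and in cells of both gates, in both libraries.

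Immediate early genes, which are induced by stimulation and also by tissue dissociation, moved with some members. The summed level of 10 of them was 26088 CPM in LI and 23885 in SI pericyte-like cells, and 27191 and 26194 in FB-like cells. Pericyte-like cells above the class median of this sum had more Rgs16, at 417 against 146 CPM in LI, a log2 ratio of 1.51 (1.08 to 1.96), and 420 against 309 in SI, a ratio of 0.44 (0.19 to 0.70). For Rgs5 the ratio was -0.19 (-0.28 to -0.10) in LI and -0.37 (-0.44 to -0.30) in SI, and for Rgs4 it was -0.09 (-0.39 to 0.22) and 0.78 (0.57 to 1.0). Rgs16 was thus higher and Rgs5 lower in such cells of both libraries, and Rgs4 was higher in SI with an interval including equality in LI. In FB-like cells Rgs2 was higher above the median in both libraries, at 1.09 (0.87 to 1.31) in LI and 0.67 (0.35 to 0.99) in SI. Rgs3 was lower in both, at -0.32 (-0.58 to -0.05) in LI and -0.81 (-1.15 to -0.47) in SI. Rgs4 was lower in LI, at -1.2 (-1.83 to -0.56), and in SI the interval included equality, at -0.39 (-0.91 to 0.13). Rgs10 was lower in SI, at -1.45 (-1.61 to -1.29), and not in LI, at 0.24 (0.14 to 0.34), and Rgs16 was at 0.20 (0.00 to 0.40) in LI and 1.36 (1.10 to 1.63) in SI. The part that dissociation had in these levels was not tested.

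**Figure D5:**
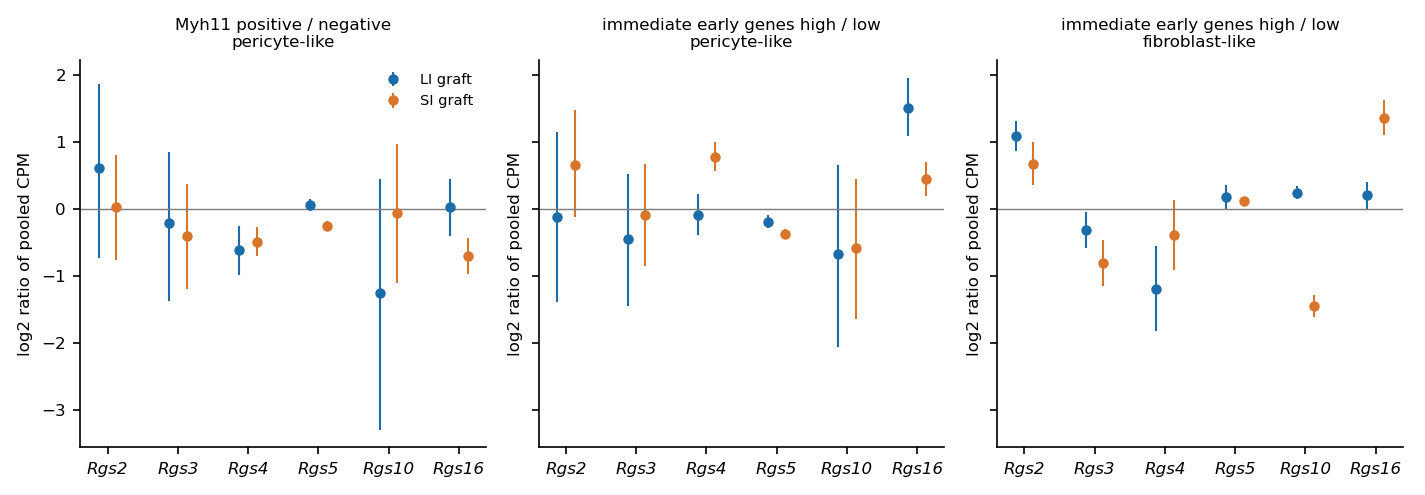
Log2 ratio of pooled CPM of each RGS gene between Myh11-positive and Myh11-negative pericyte-like cells, and between cells above and at or below the class median of the immediate early gene sum in pericyte-like and FB-like cells, in the LI (blue) and SI (orange) graft with 95% counting intervals. Rgs4 lies below 0 in both grafts in the Myh11 panel, and Rgs16 lies above 0 in both in the pericyte-like panel of immediate early genes.

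The other genes of the pathway were taken from lists of G protein alpha subunits, receptors, effectors and further RGS genes. Of 13 alpha subunit genes, 9 had at least 10 CPM in either class in both libraries, and 0 of these were 2-fold higher or lower in pericyte-like than in FB-like cells in both, where 8.28% of genes were higher and 8.49% lower. Gnai2, a widely expressed Gi subunit, was at 675 CPM in LI and 687 in SI pericyte-like cells, beside 452 and 490 in FB-like cells. Gnaq, the subunit that gives the Gq pathway its name, was at 59.2 and 54.9 CPM, beside 56.9 and 60.9.

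Of 23 genes listed as receptors of contractile stroma, 12 were measured at that level. In pericyte-like cells 6 were higher and 3 lower in both libraries, where 8.28% of all genes were higher and 8.49% lower. The list was drawn up for contractile cells, so nothing is read from the comparison with those shares. Higher were Agtr1a (angiotensin), Ednra and Ednrb (endothelin), Adra2a (noradrenaline), S1pr3 (sphingosine 1-phosphate) and Avpr1a (vasopressin). Adra2a was at 78.4 CPM in LI and 107 in SI pericyte-like cells and at 0.913 and 0.667 in FB-like cells. Lower were Lpar1 (lysophosphatidic acid), S1pr2 and P2ry1, with Lpar1 at 4.16 and 3.23 CPM in pericyte-like and 241 and 356 in FB-like cells. Of 15 effectors and brakes, 13 were measured and 6 were higher (Prkg1, Gucy1a1, Gucy1b1, Rock1, Grk3 and Grk5), with 0 lower, beside 8.28% and 8.49% of all genes. Prkg1, the cGMP-dependent kinase, was at 118 and 83.0 CPM in pericyte-like and 11.5 and 13.1 in FB-like cells.

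Of the 15 RGS genes that are no members, 3 were measured at that level. Of these 1, Rgs6, was higher in pericyte-like cells of both libraries, where 8.28% of all genes were, at 24.4 (17.9 to 32.5) CPM in LI and 23.6 (19.1 to 28.9) in SI, beside 2.99 (2.52 to 3.53) and 9.28 (8.31 to 10.3) in FB-like cells. In SMC-like cells it was 1 other, Rgs1, of 4 measured, at 38.9 CPM in LI and 47.9 in SI, beside 1.76 and 3.36, where 5.22% of genes were higher in both libraries and 5.86% lower. There 4 of 13 measured receptors were higher (Ednrb, Chrm2, Avpr1a and Htr2b) and 3 lower (Agtr1a, Lpar1 and F2r), 3 of 13 effectors were higher (Plcb3, Plcb4 and Prkg1), and 1 of 10 alpha subunits was higher (Gnao1). Agtr1a was thus higher in pericyte-like and lower in SMC-like than in FB-like cells.

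The profile of each member over 15 combinations of class and library with at least 50 cells was compared with those of 10712 genes by Pearson's correlation of log2 levels. The profiles share libraries, depth and marker gates, so the values describe likeness only. SI ICC-like cells, which had the highest Rgs10 level, were left out with 48 cells, as were mesothelial-like and immune-like cells. Rgs4 was most like Gja4 (0.968), Notch3 (0.966) and Ptp4a3 (0.965), and Notch3 was itself a marker of the pericyte gate. Rgs5 was most like Phlpp1 (0.940), Frmd4a (0.932) and Cystm1 (0.897). Rgs16 was most like 1700003F12Rik (0.944), Ndufa4l2 (0.934) and Thy1 (0.933), of which Ndufa4l2 was also a pericyte marker. Rgs10 was most like Rev3l (0.968), Fam101b (0.933) and Myh10 (0.916), Rgs2 most like Nit2 (0.857), Kcnip3 (0.847) and Pdlim3 (0.826), and Rgs3 most like Sertad3 (0.817), Lekr1 (0.798) and Plk2 (0.756). Between members, the correlation was 0.79 for Rgs4 with Rgs5, 0.786 for Rgs4 with Rgs16 and 0.614 for Rgs5 with Rgs16. Rgs10 was at -0.898 with Rgs16, -0.808 with Rgs4 and -0.753 with Rgs5.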

How the data were processed

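Single-cell RNA-seq had been performed on sorted MSC from 1 LI and 1 SI graft library (10x Genomics). The authors aligned reads to mm10 with Cell Ranger 3.1.0 and deposited raw counts, the number of UMIs per gene and barcode, as whole numbers without normalization.

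Barcodes under 500 genes or over 10% mitochondrial UMIs were removed. A cell was placed in a class when it had a UMI of at least 5 of 10 pericyte, 5 of 8 SMC, 5 of 7 fibroblast or 3 markers of any other class, and of 1 class only, with cells passing both the pericyte and the SMC gate kept apart. FB-like subsets needed 3 of 6 PDGFRAhi, 4 of 6 CD81 or 2 of 4 Fgfr2 markers. A cell that passed more than 1 of these was placed in PDGFRAhi before CD81, and in CD81 before Fgfr2. No RGS gene was a marker. The marker numbers were set after the number of markers per cell had been seen, and the 6 genes and all lists were chosen with earlier results of these data known. A change of 1 marker would have moved cells near the limits: 109 LI and 243 SI cells had exactly 5 pericyte markers, and 118 and 167 had exactly 4.

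Depth was 63348069 UMIs (median 5288 per kept cell) in LI and 54918006 (5682) in SI. Pooled CPM have Poisson intervals (exact) and shares Clopper-Pearson ones. Log2 ratios have a pseudocount of 1 CPM, and their intervals come from the binomial division of a gene's UMIs between the classes compared. The log2 scale understates differences of low genes. Where no UMI was seen, the limit is that of 3 counts. Shares were repeated with each cell thinned to 2000 UMIs, which left out 727 LI and 537 SI cells. Because each group had 1 library, nothing was tested between groups. Genes at 10 CPM or more in either class of a comparison gave the shares at least 2-fold apart. Besides the 6 members, genes are named from the lists of RGS genes, G protein alpha subunits, receptors, effectors and brakes, and as the 3 genes most correlated with each member. Cells were called female from a UMI of Xist without one of Ddx3y, Eif2s3y, Kdm5d or Uty, and male from the reverse. Doublets were not removed by score, since Scrublet (scanpy 1.11.5) called 0 cells in both libraries by its own threshold, and removal of the highest scores at 0.8% per 1000 barcodes was tried as an alternative.

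Positions came from GENCODE for GRCm38, matched by Ensembl identifier for all 21 RGS genes, and upstream sequence from RefSeq for all 6 members, of which Rgs3 has more than 1 start. Only the ratio step was tested on simulated counts. These were Poisson draws of class sums, so the test cannot show how the intervals do with the spread between real cells. Tools were SciPy 1.17.1 and pandas 2.3.3 under Python 3.11.15, matplotlib 3.10.9, NumPy 2.4.6, and Seurat 5.3.0 (clusters) and edgeR 4.0.16 (TMM factors only) under R 4.3.3.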

Additional observations from a re-analysis of the deposited data

Results flagged for a closer look

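In comparisons of pericyte-like, SMC-like or ICC-like with FB-like cells, 3 log2 ratios had opposite directions in the LI and the SI graft with counting intervals that excluded equality in both. Other ratios also differed in sign, with an interval that included equality in at least 1 library. With 1 library per graft, whether the grafts differ in these values was not tested.

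Rgs2 was lower in pericyte-like than in FB-like cells in LI, at a log2 ratio of -0.81, and higher in SI, at 0.54. Over the processing alternatives described below, the LI ratio ran from -1.06 to -0.04, and so came near equality, and the SI ratio from 0.23 to 0.63. The pericyte-like levels of Rgs2 were 27.5 CPM in LI and 37.8 in SI, and its FB-like levels 49.2 and 25.6.

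Rgs5 was higher in SMC-like than in FB-like cells in LI, at a log2 ratio of 1.64, and lower in SI, at -0.90. It was likewise higher in ICC-like than in FB-like cells in LI, at 3.61, and lower in SI, at -1.41. The FB-like level that both ratios share was 59.9 CPM in LI and 652 in SI, and the SI ICC-like value rests on 48 cells.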

How the results depend on the processing

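The 6 members were compared in 7 class or library contrasts under 12 alternatives, which gave 480 log2 ratios: 351 moved by no more than the counting interval of the original value, 128 moved further, and 1 that was at least 2-fold changed sign. Of the 172 values belonging to ratios of at least 2-fold, 168 stayed at least 2-fold the same way. The value that changed sign was Rgs2 in SMC-like over FB-like cells of SI, at -0.04 with classes from clusters against 1.68 with marker gates, and the cause was not tested. In the same contrast Rgs10 reached 1.89 against 0.46, so which members were 2-fold higher there depended on the processing. Of the counts of members, that between the grafts in FB-like cells was 2 (Rgs2 and Rgs5) with female cells alone against 1. In SMC-like cells it was 2 (Rgs5 and Rgs16) with female cells alone and 1 (Rgs3) with cells thinned to 2000 UMIs, against 0. In pericyte-like cells it was 2 (Rgs2 and Rgs16) with male cells alone, against 0, over 30 LI and 226 SI cells. Male cells alone were chosen as an alternative after seeing the data, and with them Rgs16 was no longer 2-fold higher in pericyte-like than in FB-like cells of LI, which left 2 members.
No paired analysis was possible because each group had 1 library, and for the same reason none of the libraries was left out in turn. In LI, no cluster held a majority of SMC-gated cells, so the SMC-like contrasts that need LI had no value with clusters. The 48 SI ICC-like cells limit the SI ICC-like values and their contrasts with LI, since a gene without a UMI there may be at up to 13.6 CPM.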
